A study of Arabidopsis thaliana with 16 samples.

Results

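PHE1 sites between divergent gene pairs were taken from the overlap of 2 PHE1 peak lists. PHERES1 (PHE1) is a type I MADS-box transcription factor of the endosperm, the tissue that nourishes the embryo. Of 2510 regions shared by both lists on chromosomes 1 to 5, 287 (11.4%) were members. Each was centred between 2 adjacent protein-coding genes transcribed away from each other, with both transcription start sites (TSS) within 1.5 kb of the centre and at least 1 of them within 1 kb. None held an exact CArG-box, written as 2 C, 6 of A or T and 2 G. The members fell into 255 gene pairs with 510 genes. Each pair held 1 region in 227 cases, 2 in 25 and more in 3. In all, 806 shared regions lay between divergent genes, 316 of those were within the distance limits, and the 29 that had an exact CArG-box were left out. All coordinates are TAIR10, with gene positions from the RefSeq annotation of TAIR10.1.

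The peaks came from chromatin of siliques 2 days after pollination, from Columbia plants carrying PHE1::PHE1-GFP, precipitated with a GFP antibody in 2 replicates, each with its own input. The expression values came from whole seeds 6 days after pollination, with 2 replicates a cross. The mother in every cross was the male-sterile pi-1 mutant in Landsberg erecta, and the pollen came from phe1 phe2 osd1, osd1 or wild-type (wt) Columbia plants. The osd1 mutation gives unreduced pollen, so that phe1 phe2 osd1 and osd1 pollen both yield triploid seeds with an extra paternal genome, while wt pollen yields diploid seeds. The phe1 allele is a small deletion that shifts the reading frame and the phe2 allele is a T-DNA insertion, so transcripts of both genes can still be counted. Chromatin and RNA were from different stages and different plants, and no chromatin from the triploid crosses was set against the members.

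MADS-box proteins bind DNA as dimers, and the CArG-box is the sequence they are best known for. In a divergent pair the stretch between both genes serves as the upstream region of each, so a site there has 2 possible target genes. Such promoters can drive both genes together or each in a different tissue. Assigning a peak to the nearest TSS picks 1 of the genes.

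The sequences between 6 of the pairs are printed because they are 4 of the 5 pairs with both genes raised in osd1 seeds (the first 4, in which both genes moved the same way in every pair of replicates) and, among pairs with 1 gene raised and the other not called, the 2 whose genes differed most in response. Each is the middle 300 bases of the region on the forward strand, 5′ to 3′, from the RefSeq TAIR10.1 genome, whose bases are those of TAIR10, between the TSS of both genes. The nearer gene is named first. Capitals mark stretches of 10 bases with exactly 1 mismatch to the CArG-box.
LCR24/LCR21 (chr4:14431045-14431344): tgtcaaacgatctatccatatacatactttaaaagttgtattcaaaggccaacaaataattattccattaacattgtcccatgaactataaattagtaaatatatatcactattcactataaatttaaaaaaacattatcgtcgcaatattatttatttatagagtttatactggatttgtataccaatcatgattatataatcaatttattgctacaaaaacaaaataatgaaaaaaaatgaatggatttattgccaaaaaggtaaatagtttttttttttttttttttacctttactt
MEO/AT2G20170 (chr2:8700316-8700615): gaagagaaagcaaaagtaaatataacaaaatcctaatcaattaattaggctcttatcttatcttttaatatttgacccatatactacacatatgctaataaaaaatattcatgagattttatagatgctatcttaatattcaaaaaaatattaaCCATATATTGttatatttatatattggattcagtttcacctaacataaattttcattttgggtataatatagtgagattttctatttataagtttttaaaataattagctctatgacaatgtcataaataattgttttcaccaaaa
AT2G43660/AT2G43670 (chr2:18104637-18104936): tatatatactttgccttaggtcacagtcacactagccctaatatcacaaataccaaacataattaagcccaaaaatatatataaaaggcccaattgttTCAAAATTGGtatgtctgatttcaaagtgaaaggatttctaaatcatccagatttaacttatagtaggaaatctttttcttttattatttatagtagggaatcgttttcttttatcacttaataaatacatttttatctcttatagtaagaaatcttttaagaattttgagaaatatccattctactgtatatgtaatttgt
AT4G36590/AT4G36600 (chr4:17262367-17262666): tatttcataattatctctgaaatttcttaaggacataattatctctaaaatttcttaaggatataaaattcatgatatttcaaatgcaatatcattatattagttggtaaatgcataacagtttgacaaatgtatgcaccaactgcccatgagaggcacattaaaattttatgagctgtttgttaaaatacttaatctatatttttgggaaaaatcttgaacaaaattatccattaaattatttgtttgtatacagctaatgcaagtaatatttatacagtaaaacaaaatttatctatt
CLE8/AT1G67780 (chr1:25411953-25412252): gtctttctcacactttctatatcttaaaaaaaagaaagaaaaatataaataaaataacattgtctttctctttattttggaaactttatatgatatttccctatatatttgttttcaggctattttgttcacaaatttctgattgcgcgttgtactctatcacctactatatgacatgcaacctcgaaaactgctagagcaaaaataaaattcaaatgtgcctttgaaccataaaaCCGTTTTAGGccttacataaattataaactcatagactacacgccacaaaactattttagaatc
AT2G35260/AT2G35250 (chr2:14848882-14849181): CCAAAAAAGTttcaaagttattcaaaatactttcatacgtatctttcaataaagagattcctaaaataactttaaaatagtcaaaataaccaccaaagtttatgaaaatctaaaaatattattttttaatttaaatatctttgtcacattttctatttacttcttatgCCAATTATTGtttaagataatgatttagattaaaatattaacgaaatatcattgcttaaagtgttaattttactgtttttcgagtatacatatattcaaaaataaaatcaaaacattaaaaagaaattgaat
Of the 6 windows, those of LCR24/LCR21 and AT4G36590/AT4G36600 held no such stretch, that of AT2G35260/AT2G35250 held 2 and the others held 1 each.

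Over all 287 members, 166 (57.8%) had at least 1 CArG-box with 1 mismatch in the 300 bases around the centre, against 59.9% of 1934 other shared regions without an exact CArG-box, 38.5% of windows midway between 3626 divergent pairs without a peak and 38.0% of 27443 protein-coding promoters (250 bases before to 50 after the TSS). The pattern reads the same on both strands. The mismatch was at 1 of the C or G positions in 215 of 241 boxes (89.2%), against 86.6% in promoters. Boxes were denser within 200 bp of the centre, at 10.8 to 18.1 per 100 regions in each 50-bp step, than beyond 200 bp, at 5.23 to 9.76 per 100 regions in each step. The members therefore resembled the other PHE1 regions in this feature rather than promoters at large. Within the shared regions themselves, 169 of 287 (58.9%) held such a box, since a window can reach past a narrow region or stop short of a wide one's ends. The member windows were also poorer in G and C, at 26.1% ± 3.87 (SD, n = 287 windows), against 26.8% ± 4.79 in the other shared regions and 32.2% ± 5.48 in promoters. A short A/T-rich pattern is met more often in A/T-rich sequence, and the part of base composition in the 57.8% was not tested.

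Other motifs were searched on both strands, and in each the member windows lay nearer to the other shared PHE1 regions than to promoters, so that these are traits the members had in common with PHE1 regions at large. In the other shared regions site II was in 6.98% of windows, the telo box in 1.65%, the G-box in 4.40%, TATAAA in 60.5% and GAGAGAGA in 3.77%. In member windows, the TCP site II element (TGGGCC or TGGGCT), found in front of many ribosomal and housekeeping genes, was in 9.41%, against 25.4% of the windows between divergent pairs without a peak and 21.7% of promoters. The telo box (AAACCCTA), another element of such genes, was in 0.697% against 7.09% and 6.22%, and the G-box (CACGTG) in 2.79% against 7.72% and 7.68%. TATAAA was in 67.9% of member windows, against 48.3% of the windows between pairs without a peak and 52.1% of promoters. GAGAGAGA was in 1.74% against 6.62% and 8.38%. Stretches of 1 C, 8 of A or T and 1 G, another form of the CArG-box, were in 36.2% against 28.5% and 28.4%, with 38.7% in the other shared regions, and stretches of 2 C followed by 8 of A or T in 74.2% against 53.7% and 56.0%, with 70.7% in the other shared regions. These patterns can share bases with the 1-mismatch box. A match says only that the letters were present.

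**Figure D1:**
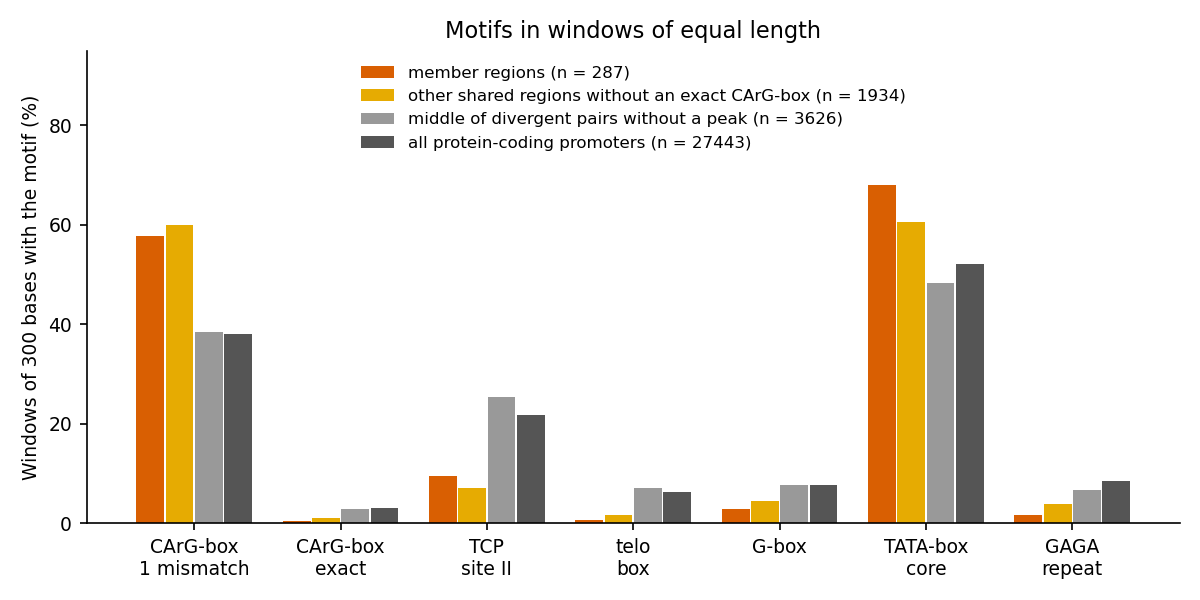
Share of windows of 300 bases (y axis, percent) holding each motif (x axis) in member regions, other shared regions without an exact CArG-box, the middle of divergent pairs without a peak, and all protein-coding promoters. Member and other shared regions stood together for the CArG-box with 1 mismatch (57.8% and 59.9%) and for the site II element (9.41% and 6.98%), while the 2 sets without selection by a peak stood together at 38.5% and 38.0%, and at 25.4% and 21.7%.

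The shared regions of the members were 330 bp wide at the median (21 to 1297 bp). Their gaps between both TSS had a median of 1017 bp (220 to 2184 bp). The centre lay 259 bp from the nearer TSS at the median (2.5 to 929.5 bp) and 757.5 bp from the farther one (154 to 1491 bp). The regions mostly lay off the middle of the gap, and the nearer TSS was at 27.7% of the gap at the median. The nearer gene was the reverse-strand gene in 152 regions and the forward-strand gene in 135. A region covered 1 TSS in 106 cases and no TSS in 176, and both TSS were within 500 bp of the centre in 70. At the limits of the rule, the region between SYN2 and UPM1 was just inside (farther TSS at 1491 bp) and that between CLASP and LCR60 just outside (1500.5 bp). For the nearer TSS, the region between AT5G57040 and ABI2 was inside (929.5 bp) and that between AT5G08350 and AT5G08360 outside (1024.5 bp).

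**Figure D2:**
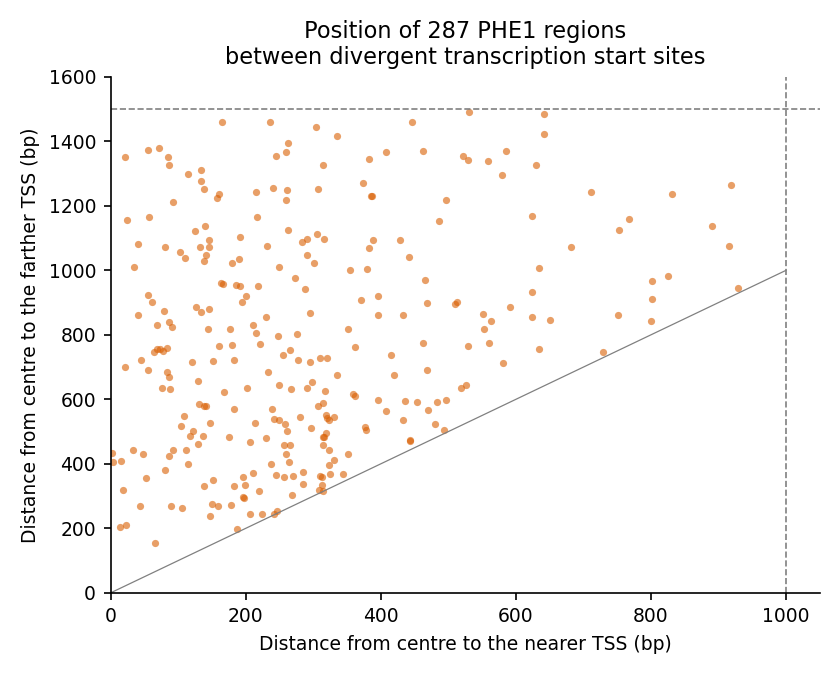
Distance from the centre of each of the 287 regions to the nearer TSS (x axis, bp) and to the farther TSS (y axis, bp), with dashed lines at the limits of 1000 and 1500 bp and a solid line where both are equal. Most points lie far above the solid line, with medians of 259 and 757.5 bp.

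Of the 510 member genes, 505 were in the table of RPKM (read counts divided by gene length and library depth), and 445 reached a mean of 0.5 RPKM in at least 1 cross and were tested. The other 60 were not tested, 22 of them at 0 in every library. Calls were made with the rank product at a one-sided p of 0.05 without adjustment, as a direction for each gene, and fold changes, their standard errors and adjusted p-values came from limma on log2(RPKM + 0.5), which understates the change of low genes. A gene that a count rests on as up or down is one that the rank product called. The replicates are separate biological samples by the methods, 2 a cross. limma fitted all crosses together, so its standard errors and p-values rest on a spread shared by the crosses and moderated over genes. The rank product p came from shuffling genes within each library and does not measure the spread between replicates. An exact permutation test of 2 against 2 libraries cannot go below p = 0.333.

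PHE1 itself checked the labels, at 49.0 and 49.1 RPKM in phe1 phe2 osd1 seeds, 200 and 169 RPKM in osd1 seeds and 2.92 and 3.10 RPKM in wt seeds. PHE2 had 37.8 and 32.5 RPKM in phe1 phe2 osd1, 81.8 and 90.1 RPKM in osd1 and 3.08 and 2.98 RPKM in wt. Both stood lower in the phe1 phe2 osd1 than in the osd1 libraries and above wt in both triploid crosses. The relative depth, read from the spacing of low values, was 1.05 to 1.12 times that of wt replicate 1 in the other 5 libraries. In 10 endosperm markers the summed level was 129 and 151 RPKM in phe1 phe2 osd1, 319 and 251 RPKM in osd1 and 49.2 and 53.5 RPKM in wt, and every marker was above 0 in all libraries but wt replicate 1, where 1 was at 0. In 7 embryo markers it was 117 and 87.6 RPKM, 59.7 and 126 RPKM, and 271 and 260 RPKM in the same order, with 1 marker at 0 in phe1 phe2 osd1 replicate 1. In 10 seed coat markers it ranged from 1090 to 1417 RPKM in phe1 phe2 osd1, from 1035 to 1528 RPKM in osd1 and from 1433 to 1450 RPKM in wt, with none at 0. No marker was a member. Most of the endosperm sum in osd1 was PHE1. Without it the other 9 endosperm markers summed to 80.0 and 102 RPKM in phe1 phe2 osd1, 119 and 82.4 RPKM in osd1 and 46.3 and 50.4 RPKM in wt, so that both triploid crosses overlapped and stood above wt. The endosperm and embryo sums moved with the crosses in every comparison against wt below. Their part in those results was not tested, and in whole seeds more cells of a type and more RNA per cell cannot be told apart.

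The first comparison asks which member genes differed in triploid seeds. In osd1 against wt seeds, 76 of the 445 tested member genes (17.1%) were called up, against 8.54% of all 20051 genes tested, and 24 (5.39%) were called down, against 8.63%. The median log2 fold change was 0.17 over the members and 0.01 over all genes. Raised genes included defensin-like LCR24 and LCR21, the CLE peptide gene CLE8 and the galactosyltransferase gene DD46. Genes of divergent pairs with no peak between them were called up in 5.11% of 5398 cases. Genes with a region in front of 1 gene alone and no CArG-box were called up in 215 of 657 cases (32.7%), and genes of divergent pairs with an exact CArG-box region in 11 of 47 (23.4%).

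The level of the members in wt seeds went with the share raised. Of 37 members under 0.5 RPKM in wt, 31 were called up, against 66.2% of all genes tested at that level. From 0.5 to 5 RPKM it was 35 of 107 (32.7%) against 11.4%, from 5 to 50 RPKM 10 of 242 (4.13%) against 1.56%, and at 50 RPKM and over 0 of 59 against 1.07%. A gene under 0.5 RPKM in wt had to reach the filter in a triploid cross to be tested at all, so the count in the lowest class is set in part by the filter. Members and all genes had a like share in that class, 8.31% and 6.97%.

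With limma at an adjusted p of 0.05, 116 members were raised (background 12.6%) and 44 lowered (background 13.4%) in osd1 against wt. With the rank product p adjusted by Benjamini-Hochberg, 4 of the 445 were called up, MYB89, AT1G63522, AT1G22420 and AT1G07747, against 0.389% of all genes, and 0 were called down, against 0.329% (24 members before adjustment and 44 by limma). MYB89, AT1G63522 and AT1G07747 were listed at 0 in both wt libraries. MYB89 and AT1G63522 were named after their values were seen.

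The second comparison is within pairs. Both genes were tested in 195 pairs, 1 gene in 55 and none in 5. In osd1 against wt seeds both genes were called up in 5 of the 195 (2.56%), against 1.19% of 2782 divergent pairs. Exactly 1 gene was called up in 55 (28.2%), against 11.6% of all divergent pairs and 8.33% of 2113 pairs without a peak. Of those 55, the neighbour was not called in 51 and was called down in 4. A gene was called down beside an uncalled neighbour in 16 pairs (8.21%), against 12.1% of all divergent pairs and 13.1% of pairs without a peak. Both were called down in 1 pair (0.513%, against 0.863% and 0.947%), that of AT1G18770 and AT1G18773 (named after its values were seen), and no gene was called in 118 (60.5%, against 76.8% of the pairs without a peak). By these rank product calls, raised genes mostly stood beside a neighbour that was not raised, in member pairs as in pairs without a peak. limma called both genes up in more of the member pairs, as given under the dependence on processing. Of 65 raised genes in the 195 member pairs, 10 (15.4%) had a raised neighbour, against 17.0% in pairs without a peak. The base rates were unlike, since 17.1% of tested member genes and 5.11% of tested genes of pairs without a peak were called up. The 15.4% was thus near the members' own share, while the 17.0% was above that of its set.

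**Figure D3:**
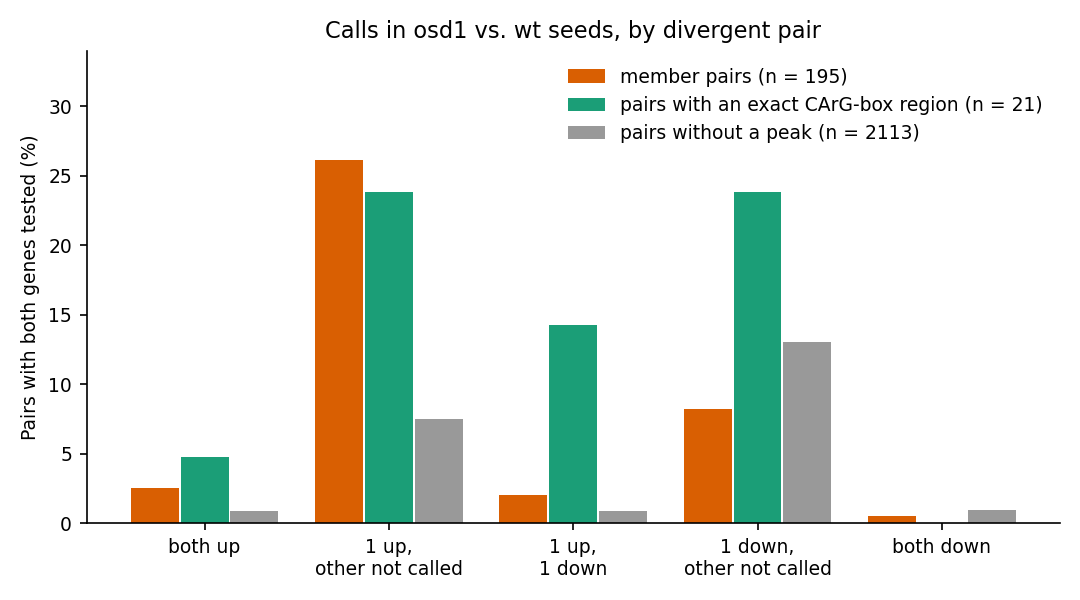
Share of divergent pairs with both genes tested (y axis, percent) by the calls of both genes in osd1 vs. wt (x axis), for member pairs (n = 195), pairs with an exact CArG-box region (n = 21) and pairs without a peak (n = 2113). The tallest bar of the member pairs is 1 gene up beside an uncalled neighbour, at 26.2%, against 7.48% of pairs without a peak, and both up is 2.56% against 0.852%.

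The raised gene was usually the quieter one in wt. In 48 of the 55 pairs it had the lower wt level, with a median of 0.736 RPKM against 13.9 RPKM in its neighbour. The same held in 155 of 176 pairs without a peak (88.1%). Of the 55 raised genes 25 were under 0.5 RPKM in wt, against 2 of the neighbours. In pairs without a peak it was 104 of 176, against 6. Such a gene had to reach the filter in a triploid cross to be tested, and the wt level also enters the fold change. These counts are therefore in part set by the filter and the call, and are a description only. The raised genes had a median log2 fold change of 2.87 and the neighbours of 0.14 (quartiles -0.16 and 0.50). The log2 fold changes of both genes had the same sign in 112 of 195 pairs (57.4%), against 52.7% of pairs without a peak. Across the 195 pairs Pearson's r was 0.07 and Spearman's rho 0.16, against 0.08 and 0.09 across pairs without a peak, as a description over genes of the same 4 libraries.

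The difference in response between both genes was tested itself, with limma on the difference of their log2 values. It passed an adjusted p of 0.05 in 85 of 195 member pairs (43.6%), against 29.8% of all 2782 divergent pairs and 26.9% of the pairs without a peak. The nearer gene had the higher response in 53 of the 85 and the farther gene in 32. Over all 195 pairs the nearer gene's log2 fold change was the higher in 104, and the median difference was 0.13. The difference passed in 40 of the 51 pairs with 1 gene up and an uncalled neighbour, in 4 of the 4 with 1 up and 1 down, and in 4 of the 5 with both up. These groups were formed by calls on the same libraries, so the counts by group are in part set by the grouping and are a description only. Leaving out wt replicate 1 or 2 brought the 85 to 44 or 47.

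**Figure D4:**
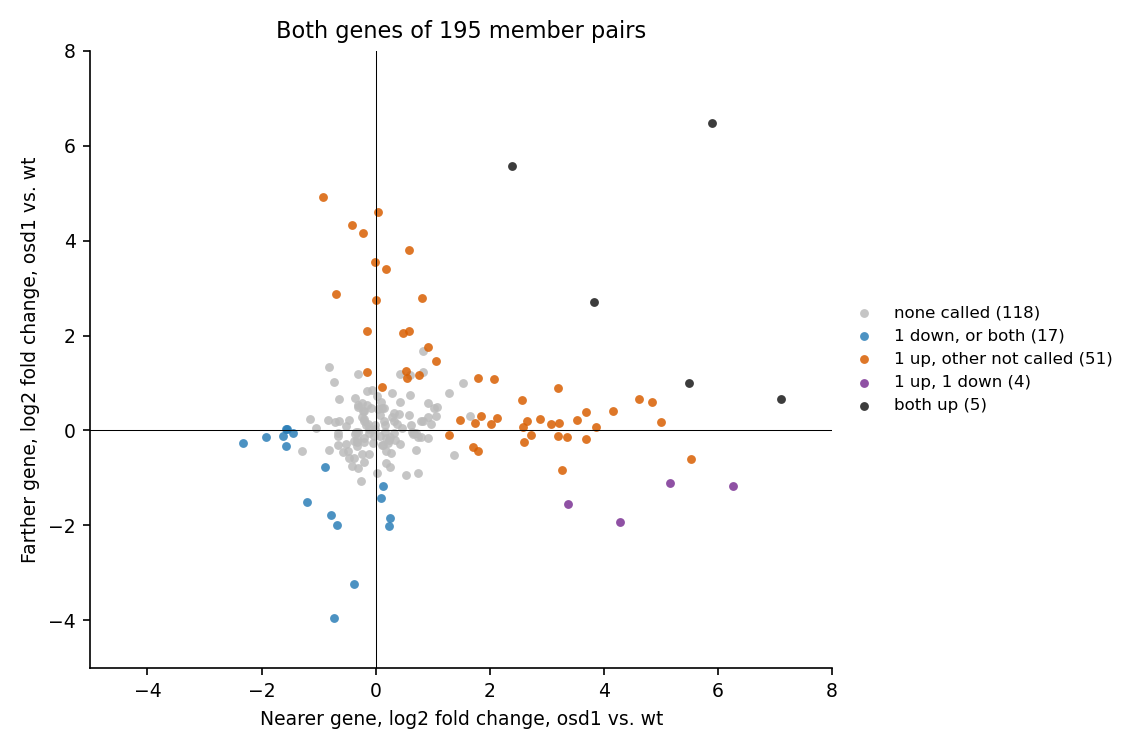
Log2 fold change of the nearer gene (x axis) and of the farther gene (y axis) in osd1 vs. wt for the 195 pairs with both genes tested, coloured by call. The 51 pairs with 1 gene up and an uncalled neighbour lie along both axes, and only 5 pairs are called up on both.

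The share called up was also higher among nearer genes. Of 233 nearer genes 50 were called up (21.5%) and of 212 farther genes 26 (12.3%), against 8.54% of all genes tested. Called down were 3.86% of the nearer and 7.08% of the farther genes, against 8.63%. By distance, the share called up was 18.9% of 132 genes within 250 bp, 19.1% of 136 from 250 to 500 bp, 15.4% of 117 from 500 to 1000 bp and 11.7% of 60 beyond 1000 bp. The shares called down were 3.79%, 5.88%, 4.27% and 10.0% in the same order. The median log2 fold changes were level up to 1000 bp, at 0.18, 0.16 and 0.18, with -0.04 beyond. Only the nearer gene rose in 35 pairs and only the farther gene in 20. In those 20 the region closest to a TSS lay nearer to the gene that was not called up. Pairs with several regions were placed by that region alone. Another region between ECA4 and AT1G07680 lay nearer to the raised AT1G07680 (563.5 bp, against 841.5 bp for ECA4). Raised farther genes such as TPPC and AT3G11920 were also on the study's own target list. Regions over 482 bp wide had 20.9% of 153 genes up, and the narrowest, up to 263.7 bp, had 15.3% of 150.

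Both genes rose in the pair of LCR24 and LCR21, genes of small secreted cysteine-rich proteins. LCR24, the nearer, had 117 and 130 RPKM in phe1 phe2 osd1, 235 and 105 RPKM in osd1 and 2.54 and 1.82 RPKM in wt. LCR21 had 120 and 128 RPKM in phe1 phe2 osd1, 268 and 137 RPKM in osd1 and 1.97 and 1.36 RPKM in wt. Every triploid library of both genes stood above every wt library, and log2 fold changes in osd1 vs. wt were 5.89 ± 0.37 (SE, limma adjusted p = 0.000376) and 6.49 ± 0.32 (limma adjusted p = 0.000251). Their responses differed by -0.60 ± 0.16 (nearer minus farther, limma adjusted p = 0.035). The 2 genes are members of 1 family, and the aligner kept 1 placement for each read, so their split is uncertain. Both genes of the pair were thus far above wt in triploid seeds.

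MEO, an SKP1-like gene of ubiquitin ligase complexes that is on the published list of paternally expressed genes, had 249 and 377 RPKM in phe1 phe2 osd1, 180 and 184 RPKM in osd1 and 11.8 and 13.1 RPKM in wt. Its neighbour AT2G20170, annotated as a DUF239 protein, had 32.6 and 20.3 RPKM, 23.5 and 25.0 RPKM, and 3.42 and 3.19 RPKM in that order. The log2 fold changes in osd1 vs. wt were 3.82 ± 0.20 and 2.70 ± 0.23, and their difference of 1.12 ± 0.39 did not pass (limma adjusted p = 0.072). MEO was also called up in phe1 phe2 osd1 against osd1 (0.75 ± 0.20).

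The carbohydrate-binding X8 domain genes AT2G43660 and AT2G43670 lay 494 bp apart from TSS to TSS. AT2G43660 had 106 and 94.3 RPKM in phe1 phe2 osd1, 83.9 and 87.1 RPKM in osd1 and 15.1 and 16.8 RPKM in wt. AT2G43670 had 51.4 and 30.4 RPKM, 36.9 and 25.8 RPKM, and 0.11 and 0.204 RPKM. Both rose, and the farther gene by more (log2 fold change 2.39 ± 0.12 and 5.58 ± 0.30, difference -3.19 ± 0.28, limma adjusted p = 0.000695). As 2 genes of 1 family, their split is uncertain as well.

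AT4G36590, annotated as a MADS-box transcription factor, had 99.6 and 129 RPKM in phe1 phe2 osd1, 107 and 75.6 RPKM in osd1 and 2.22 and 0.968 RPKM in wt, a log2 fold change in osd1 vs. wt of 5.50 ± 0.33. Its neighbour AT4G36600, a late embryogenesis abundant protein gene with its TSS 1047 bp from the centre, had 0.776 and 1.33 RPKM, 0.571 and 0.438 RPKM, and was listed at 0 in both wt libraries. That neighbour was called up from a trace level. In the last pair with both called up, AT3G17150 and AT3G17140 (invertase or pectin methylesterase inhibitor family), AT3G17150 had 141 and 184 RPKM, 364 and 107 RPKM, and 0.478 and 1.59 RPKM. AT3G17140 had 0.855 and 0 RPKM in phe1 phe2 osd1, 1.68 and 0.172 RPKM in osd1 and 0 and 0.668 RPKM in wt, so that its osd1 and wt libraries overlapped.

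One-sided pairs, named here by the largest difference in response, showed the split most plainly. CLE8, a CLE peptide gene known from early seed development, had 101 and 173 RPKM in phe1 phe2 osd1, 137 and 83.0 RPKM in osd1 and 2.23 and 1.47 RPKM in wt. Its neighbour AT1G67780, a zinc-finger gene, had 1.20 and 1.71 RPKM, 2.25 and 1.51 RPKM, and 3.23 and 2.94 RPKM. CLE8 rose (log2 fold change 5.53 ± 0.34) and AT1G67780 was not called (-0.61 ± 0.27), and the responses differed by 6.13 ± 0.28 (limma adjusted p = 0.000169). Though uncalled, AT1G67780 was lower in every triploid library than in both wt libraries.

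For AT2G35260 and AT2G35250 it was the farther gene that rose, though their TSS lay 325 and 370 bp from the centre. AT2G35250, another DUF239 gene, had 20.7 and 17.4 RPKM in phe1 phe2 osd1, 46.7 and 17.5 RPKM in osd1 and 0.477 and 0.44 RPKM in wt. AT2G35260, a CAAX protease gene, had 18.9 and 19.7 RPKM, 23.4 and 15.8 RPKM, and 37.3 and 36.6 RPKM, without a rank product call. Every triploid library of AT2G35260 stood below both wt libraries (log2 fold change in osd1 vs. wt -0.92 ± 0.19, limma adjusted p = 0.018).

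DD46, a galactosyltransferase gene, had 14.0 and 9.73 RPKM in phe1 phe2 osd1, 32.0 and 13.1 RPKM in osd1 and 0.162 and 0.15 RPKM in wt. Its neighbour SHM6, a serine hydroxymethyltransferase of one-carbon metabolism, had 15.4 and 16.8 RPKM, 18.4 and 17.2 RPKM, and 16.5 and 14.8 RPKM, so that its phe1 phe2 osd1 and wt libraries overlapped. AT3G24068, of the self-incompatibility S1 family, had 687 and 247 RPKM, 629 and 744 RPKM, and 33.9 and 32.8 RPKM, while AT3G24070, a zinc knuckle gene whose TSS lay 385 bp away, had 8.77 and 9.70 RPKM, 8.85 and 7.59 RPKM, and 10.9 and 11.3 RPKM. In these pairs a gene with a large rise stood beside one without a call. Though uncalled, AT3G24070 was lower in every triploid library than in both wt libraries.

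In the other 4 pairs of this kind the neighbour was likewise uncalled. AT3G11920, a glutaredoxin-like gene with its TSS 1443.5 bp from the centre, rose by 4.60 ± 0.35 on the log2 scale, and the nearer UBP13, a ubiquitin-specific protease, had 0.04 ± 0.13. FOLB1, of folate synthesis, rose by 4.16 ± 0.22 and the nearer AT3G11760 had -0.22 ± 0.23. AT3G28490, an oxygenase gene, rose by 4.84 ± 0.43 and the ribosomal protein gene AT3G28500 had 0.59 ± 0.16. The phosphate transporter gene PHT1;7 was called up, at 1.13 and 14.6 RPKM in phe1 phe2 osd1, 4.04 and 6.18 RPKM in osd1 and 0.0745 and 0.0688 RPKM in wt, and CDT1B, of replication licensing, had -0.83 ± 0.19 without a call. In all 4 the response of both genes differed (limma adjusted p from 0.000502 to 0.017).

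In 4 pairs the genes went opposite ways. AT2G30810, of the gibberellin-regulated family, had 1099 and 2156 RPKM in phe1 phe2 osd1, 2370 and 1365 RPKM in osd1 and 22.2 and 23.9 RPKM in wt. AT2G30820, an amidotransferase subunit gene, had 0.677 and 0.579 RPKM, 0.506 and 0.259 RPKM, and 0.921 and 2.24 RPKM. The difference of 7.43 ± 0.43 (limma adjusted p = 0.000273) was made mostly by the first gene.

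The carboxypeptidase-like gene scpl21 had 15.3 and 30.8 RPKM in phe1 phe2 osd1, 22.3 and 7.17 RPKM in osd1 and 0.0382 and 0.352 RPKM in wt, and its neighbour AT3G25410, a bile acid symporter family gene, had 10.8 and 13.8 RPKM, 12.8 and 11.7 RPKM, and 55.0 and 41.9 RPKM. AT3G25410 was the gene of this kind with a high wt level, and its fall of 1.93 on the log2 scale in osd1 vs. wt (SE 0.19) held in every library. AT1G22420, a hydroxyproline-rich glycoprotein gene, rose beside the dehydrogenase gene AT1G22430 (5.16 ± 0.87 and -1.12 ± 0.26). AT2G24810, of the thaumatin family, rose beside the peroxidase gene AT2G24800 (3.36 ± 0.41 and -1.54 ± 0.38), which had no more than 1.09 RPKM in any library.

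**Figure D5:**
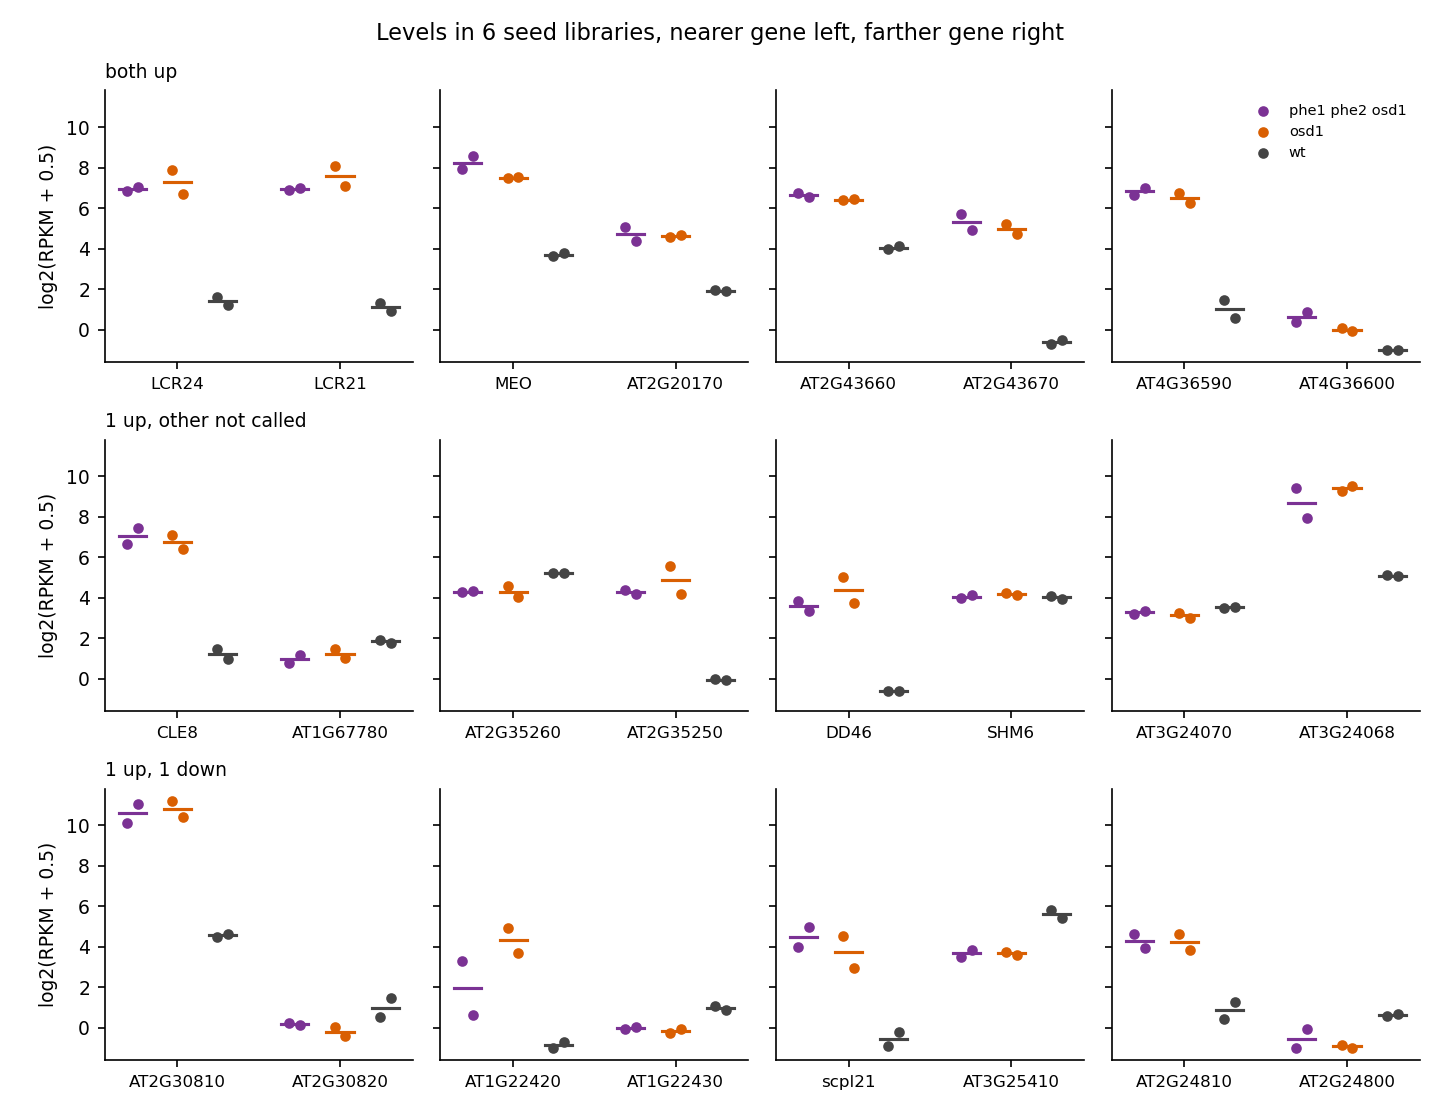
Levels as log2(RPKM + 0.5) (y axis) of both genes of 12 pairs, the nearer gene left and the farther right in each panel, in phe1 phe2 osd1, osd1 and wt seeds (points are the 2 libraries of a cross, lines their mean). In the top row both genes of a pair stand higher in the triploid crosses, in the middle row 1 gene does, and in the bottom row 1 gene stands higher and the other lower than in wt.

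Lowered genes were fewer. SYP111, the cytokinesis syntaxin also known as KNOLLE, had 56.2 and 62.1 RPKM in phe1 phe2 osd1, 14.0 and 41.8 RPKM in osd1 and 372 and 387 RPKM in wt. Its TSS lay 1458.5 bp from the centre, and the nearer gene ACHT4, of an atypical thioredoxin, had 36.0 and 24.3 RPKM, 27.3 and 24.1 RPKM, and 43.4 and 42.4 RPKM without a call. SYP111 fell by 3.94 on the log2 scale in osd1 vs. wt (SE 0.45), and the embryo marker sum, given above, was lower in the same libraries. TPS4, a trehalose-6-phosphate synthase gene, fell by 3.23 (SE 0.31) beside PRA1.H (-0.38 ± 0.15). AT5G13600, of the NPH3 family, fell by 2.32 (SE 0.23) and AT1G15410, a racemase gene, fell by 2.01 (SE 0.17), beside AT5G13590 (-0.26 ± 0.30) and AT1G15400 (0.24 ± 0.17).

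Of the 118 pairs with no call, the 4 highest in wt are given by their values. In the pair of RCE1, an enzyme of RUB1 conjugation, and GGPS1, of isoprenoid synthesis, the log2 fold changes in osd1 vs. wt were 0.43 ± 0.12 and 0.60 ± 0.12. GGPS1 had 201 and 192 RPKM in phe1 phe2 osd1, 199 and 173 RPKM in osd1 and 117 and 128 RPKM in wt, and RCE1 126 and 130 RPKM, 108 and 122 RPKM, and 79.1 and 91.2 RPKM. In both, every triploid library stood above both wt libraries without a rank product call. The chaperonin gene AT5G20890 and the jasmonate repressor gene JAZ12 had -0.21 ± 0.12 and 0.23 ± 0.15. SYNC1, a tRNA synthetase gene, and the ribosomal protein gene AT5G56670 had 0.28 ± 0.10 and 0.29 ± 0.12, and the V-ATPase subunit copies AT3G28715 and AT3G28710 had -0.21 ± 0.12 and -0.15 ± 0.10.

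Comparing phe1 phe2 osd1 with osd1 seeds asks whether loss of paternal PHE1 and PHE2 changed the members in triploid seeds. The rank product called 14 of 445 members up (3.15%), against 4.36% of all genes, and 10 down (2.25%), against 4.17%. The median log2 fold change was 0.00 over the members and 0.01 over all genes, and limma called none at an adjusted p of 0.05, with an unadjusted p under 0.05 in 11 members (2.47%) and in 554 of all genes (2.76%). PHE1 itself had -1.90 ± 0.13 on the log2 scale (limma adjusted p = 0.0952), so the adjusted threshold missed even the mutated gene. No difference in response within a member pair passed either. The osd1 libraries are the same as in the comparison of osd1 with wt.

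LBD35, a LOB-domain gene, had 7.78 and 6.69 RPKM in phe1 phe2 osd1, 25.4 and 17.2 RPKM in osd1 and 0.329 and 0.912 RPKM in wt, with all 3 crosses apart. AT1G22420 had 9.32 and 1.02 RPKM in phe1 phe2 osd1, 29.9 and 12.5 RPKM in osd1 and 0 and 0.118 RPKM in wt. AT1G07747, a lipid-transfer protein gene, had 1.61 and 1.33 RPKM in phe1 phe2 osd1, 1.97 and 3.23 RPKM in osd1 and was listed at 0 in wt. AT1G15757, a DnaJ-family gene, had 19.5 and 9.99 RPKM, 22.8 and 32.5 RPKM, and 21.4 and 9.43 RPKM. The first 3 stood between osd1 and wt, whereas AT1G15757 overlapped with wt.

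Among the called members that stood higher in all 4 pairs of replicates, the largest rises in phe1 phe2 osd1 vs. osd1 were those of SYP111 (1.27 ± 0.45), AT5G52480 (1.19 ± 0.50), CDR1 (1.11 ± 0.32) and TPS4 (0.85 ± 0.31). SYP111 and TPS4 are also the members that fell most in osd1 vs. wt, and both stayed well below wt in phe1 phe2 osd1. CDR1, an aspartyl protease gene of disease resistance, had 17.7 and 24.6 RPKM in phe1 phe2 osd1, 11.6 and 7.56 RPKM in osd1 and 3.34 and 1.90 RPKM in wt, so that phe1 phe2 osd1 stood farthest from wt. AT5G52480, a leucine-rich repeat (RNI-like) gene, had 2.88 and 2.72 RPKM, 1.83 and 0.397 RPKM, and 0.478 and 1.10 RPKM.

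Against wt, phe1 phe2 osd1 seeds had 76 members called up (17.1%), against 8.51% of all genes, and 20 called down (4.49%), against 9.06%. The wt libraries are the same as in the comparison of osd1 with wt. Both genes were up in 5 of 195 pairs (2.56%), against 1.11% of all divergent pairs, and the same-sign share was 59.5% against 53.5%. The difference within a pair passed in 83 of the 195 pairs (42.6%), against 28.4% of all divergent pairs and 25.5% of the pairs without a peak.

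Among genes on the published list of paternally expressed genes, 9 were members, all tested, and 6 were called up in osd1 vs. wt. The median log2 fold change of the 9 was 2.06, against 0.61 over the 145 tested genes of that list and 0.01 over all genes. Of those 145 genes 37.2% were called up. Besides MEO, the members called up were AT1G72080 (3.19 ± 0.41), PKR2, a chromatin remodeling factor (1.79 ± 0.31), AT5G39560, a kelch-repeat gene (2.66 ± 0.23), AT1G49290 (3.41 ± 0.44) and AT2G42640, a kinase gene (2.06 ± 0.18). Of the 6, MEO alone had a raised neighbour. PKR2 had 21.3 and 20.2 RPKM in phe1 phe2 osd1, 22.6 and 11.3 RPKM in osd1 and 4.25 and 4.31 RPKM in wt, and its neighbour AT4G31890 had at most 1.54 RPKM. ASP1 (-0.39 ± 0.15), CDC27a (0.48 ± 0.17) and AT3G45090 (0.66 ± 0.12) were not called. Of the maternally expressed list, SAP10 was at 0 in every library and AT4G18150 was not called (-0.15 ± 0.34), and 8.70% of the tested genes of that list were called up.

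The study's own target list, drawn from the same peaks, held the nearer gene alone in 185 pairs, the farther alone in 27, both in 28 and neither in 15. Of 245 tested members on that list 56 were called up (22.9%), against 398 of all 1526 tested genes of the list (26.1%). Of 200 members off it 20 were up (10.0%) and 13 down, against 8.54% up and 8.63% down of all genes tested. The study split its list into 3 clusters by endosperm expression over seed development in data from elsewhere. Of the members in cluster 1, 27 of 32 were up in osd1 vs. wt, against 75.0% of all tested genes of that cluster. In cluster 2 it was 0 of 53, with 4 down, against 1.41%, and in cluster 3 13 of 121, with 6 down, against 13.8%. The clusters separated the members as they separated the whole list.

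Of the gene groups taken from words in the annotation, cell wall genes had 3 of 4 tested members up (AT3G17150, AT3G17140 and the expansin-like gene EXLA3), against 25.9% of all tested genes of that group. AT3G17150 and AT3G17140 are the genes of 1 pair, and the osd1 and wt libraries of AT3G17140 overlapped, as given above. Histone or chromatin genes had 3 of 7 up (ASHH4, PKR2 and AT1G20240), against 4.41%. Their median log2 fold change was 0.84, against -0.10 over all tested genes of that group. Transcription factor or DNA-binding genes had 3 of 9 up (AT3G05860, AT4G36590 and AT5G42910), against 9.67%, and transporter genes had 2 of 8 (AT3G10290 and PHT1;7), against 7.82%. Ribosomal or translation genes had 2 of 6 up (AT2G27700 and RPL12-B), against 2.27%, and cell division genes 0 of 2. Kinase or receptor genes had 2 of 28 up and 2 down, against 4.95% up, and genes of unknown product 5 of 23 up and 2 down, against 11.7% up. ASHH4, a histone methyltransferase gene, was at 0.985 and 0.414 RPKM in phe1 phe2 osd1, 0.859 and 0.604 RPKM in osd1 and listed at 0 in wt, and AT1G20240, a SWI-SNF-related gene, rose by 2.74 ± 0.18 on the log2 scale. The transcription factor genes AT3G05860 and AT4G36590 are annotated as MADS-box genes and AT5G42910 as a bZIP gene. AT3G05860 had 9.23 and 12.9 RPKM in phe1 phe2 osd1, 13.1 and 11.6 RPKM in osd1 and 0.702 and 0.519 RPKM in wt, every triploid library above both of wt. Of the 21 names on the type I MADS-box list 18 matched a gene, and 14 of 15 tested genes were called up. No member matched that list by name. AT3G05860 and AT4G36590 carry only locus IDs in the annotation, so a match by name could not settle whether they belong to it.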

How the data were processed

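Peak positions were deposited for 2 PHE1-GFP ChIP replicates. Per the methods, the authors aligned ChIP reads to TAIR10 with Bowtie 1.2.2, kept unique placements and called peaks per replicate against its input with MACS2 2.1.1. The deposited RPKM values of 6 seed libraries were made by the authors with TopHat2 2.1.0, 1 placement kept per read, and GFOLD, on poly(A) RNA. RPKM carries no read counts, so depth was read only relative to wt replicate 1 and no counting interval is given.

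Shared regions overlapped by at least 1 bp (bedtools 2.31.1). TSS came from the RefSeq annotation (TAIR and Araport) of TAIR10.1, which held 26719 of the 27206 table IDs. Annotated TSS can differ from those used by the authors. Genes with a mean of at least 0.5 RPKM in 1 cross or more were tested (20051). The rank product, after the authors' methods, was recoded in Python 3.11.15, with zeros set to 0.0001, 100 permutations of each library and calls at a one-sided unadjusted p of 0.05. limma 3.58.1 (R 4.3.3) gave log2 fold changes on log2(RPKM + 0.5), standard errors and Benjamini-Hochberg adjusted p over all genes, and over all divergent pairs (TSS within 3 kb of each other) for the difference between both genes. Both were tested on drawn data with known answers. Pairs without a peak had no peak of either replicate between their TSS.

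The members, lists and tests were chosen with earlier results of these data known. Genes were named by rule: pairs with both genes up, by the smaller fold change; with 1 up, or 1 up and 1 down, by the difference; with a gene down, by the fall; the 4 largest rises and falls in phe1 phe2 osd1 vs. osd1; uncalled pairs by wt level; and list members. Called genes of these pairs had to keep 1 direction in each of the 4 replicate pairs, which left out AT3G17150 and AT3G17140, named because the count of pairs with both up is 5. Alternatives tried were the overlap, peak width, pseudocount, filter, adjustment, test, replicate block and leaving out each replicate.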

Additional observations from a re-analysis of the deposited data

How the results depend on the processing

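Of the 287 member regions, 170 remained as a count under a 50% reciprocal overlap and 141 with peaks at least as wide as the median, and with 1 peak list alone the rule gave 296 to 536. The 76 genes called up in osd1 vs. wt became 48 and 45 under those rules, 4 with adjusted rank product p, 116 with limma and 60 to 118 with a replicate left out. The 24 called down became 14 with no filter on low values, 0 with adjusted rank product p, 44 with limma and 13 to 24 with a replicate left out. Pairs with both genes up, 5 at first, were 3 at a minimum of 2 RPKM, 0 with adjusted rank product p, 17 with limma and 4 to 7 with a replicate left out. Pairs with exactly 1 gene up, 66 over all 255 pairs (an untested neighbour counted as not called), were 4 with adjusted rank product p and 48 to 67 with a replicate left out. The 85 pairs whose genes differed in response were 44 to 81 with a replicate left out, lowest without wt replicate 1.

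In phe1 phe2 osd1 vs. osd1 the 14 up and 10 down were 0 and 0 with adjusted rank product p and with limma, the 10 became 18 with a pseudocount of 1 and 16 at a minimum of 2 RPKM, and with a replicate left out the counts were 10 to 21 up and 10 to 17 down. In phe1 phe2 osd1 vs. wt the 76 up were 2 with adjusted rank product p, 115 with limma and 66 to 76 with a replicate left out, and the 20 down were 0, 48 and 13 to 20. The cause of these shifts was not tested. Among 724 values of named genes under the alternatives, 681 kept direction and side of the threshold, 33 lost and 8 gained a call. UBP13 was -0.0097 and AT5G13590 0.13 on the log2 scale in osd1 vs. wt with 1 osd1 replicate left out, with ranges over both osd1 replicates of -0.0097 to 0.088 and -0.65 to 0.13, the only reversals, and neither gene was called.

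Replicate numbers did not pair the libraries: deviations of same-numbered libraries correlated at 0.174 between phe1 phe2 osd1 and osd1, -0.01 between phe1 phe2 osd1 and wt and -0.00 between osd1 and wt. With the replicate number as a block in limma, calls were 115 up and 51 down with 15 pairs both up in osd1 vs. wt, 0 up and 0 down in phe1 phe2 osd1 vs. osd1, and 44 down in phe1 phe2 osd1 vs. wt, and 86 pairs differed in response. With 2 libraries a cross and no read counts, small changes of low genes lie below what these values can resolve.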
